A study of Mus musculus with 11 samples.

Results

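The genes described here are Tgm2, which encodes transglutaminase 2, and 6 genes of the plasminogen activator system and its matrix partners: Plau, Plaur, Plat, Serpine2, Serpinb2 and Thbs1. They were chosen by function and with earlier results of these data known, and were found by Entrez Gene ID matched to mouse symbol. All 7 were found among the 27179 genes of the count table, and all 7 passed the filter on low counts. Because every library of the 4 treatment groups was in view when they were chosen, their values are given as a description. Whether a member passed the test fitted over all genes is stated only to place it, and nothing is supported by it.

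The cells were group 2 innate lymphoid cells (ILC2s), tissue-resident lymphocytes of type 2 immunity, taken by cell sorting from wild-type C57BL/6 large intestine. Every culture, vehicle included, was kept for 3 h in IL-7 and IL-2, both at 100 ng/ml. The groups were IL-25 plus ADM2 (100 ng/ml and 0.4 µg/ml, n = 2), IL-25 alone (100 ng/ml, n = 3), ADM2 alone (0.4 µg/ml, n = 3) and vehicle (n = 3). IL-25 is an epithelial alarmin, and ADM2 (adrenomedullin 2) is a peptide of the CGRP family whose receptors couple to cAMP. The labels give no age, sort gate or source animal per culture, so the spread between replicates may be technical. The libraries held 25809256 to 35445351 counts, with 14837 to 15954 genes detected in each. All 14 ILC2 markers examined, among them Gata3, Il1rl1 and Il17rb, averaged above 1 CPM in every group. So did all 8 fibroblast markers, and 6 or 7 of the 7 endothelial markers, so this does not measure purity.

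Transglutaminase 2 is a calcium-dependent enzyme that crosslinks proteins by joining glutamine to lysine side chains, inside cells and in the extracellular matrix. Fibrinolysis dissolves fibrin and matrix: the proteases urokinase (Plau) and tissue plasminogen activator (Plat) cleave plasminogen to plasmin, and the urokinase receptor (Plaur) holds urokinase at the cell surface. Serpins such as protease nexin-1 (Serpine2) and plasminogen activator inhibitor 2 (Serpinb2) block the activators. Thrombospondin 1 (Thbs1) is a secreted matrix glycoprotein that binds CD47 and CD36 and can activate latent TGF-beta.

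Tgm2 (Entrez ID 21817, chromosome 2, 158116405 to 158146392, minus strand, GRCm38.p6) had the largest change of the 7 with ADM2. Its levels in ADM2 cultures were 1516, 1621 and 1376 CPM (read counts divided by library size after TMM scaling), against 126, 116 and 120.4 CPM in vehicle cultures. Every ADM2 library stood far above every vehicle library, a fitted difference of 12.5-fold (log2 fold change 3.64 ± 0.09, SE), which ranked 95th of 15028 genes. With IL-25 present, levels were 752 and 694 CPM in IL-25 plus ADM2 cultures, against 95.8, 100.0 and 101 CPM in IL-25 cultures. That difference was 7.31-fold (log2 fold change 2.87 ± 0.09), again with no overlap between the groups. In bulk RNA a change in the number of expressing cells cannot be told apart from a change in RNA per cell.

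IL-25 moved Tgm2 the other way. Without ADM2 the mean was 98.9 ± 2.68 CPM in IL-25 cultures and 120.7 ± 5.27 CPM in vehicle cultures (SD, n = 3 each), 1.22-fold lower with IL-25. This small difference passed the edgeR threshold, but not when vehicle replicate 1 was left out (log2 fold change −0.29 with and without that library). On top of ADM2 the fitted gap was wider. The interaction, described below, called Tgm2 by DESeq2 but not by edgeR or limma voom. Means were 723 ± 40.7 CPM (SD, n = 2) in IL-25 plus ADM2 cultures and 1504 ± 123 CPM (SD, n = 3) in ADM2 cultures, 2.08-fold lower with IL-25 (log2 fold change −1.06 ± 0.10). The order of the groups was thus ADM2, IL-25 plus ADM2, vehicle and IL-25, and no neighbouring groups overlapped. GENCODE M21 has the opposite-strand genes Rprd1b and Gm20412 overlapping Tgm2, and whether counting used strand is not given in the sources used here. The RefSeq table used to match IDs has no other gene over Tgm2, but the annotation used in counting is not given either. Rprd1b itself had a log2 fold change of 0.18 ± 0.10 between ADM2 and vehicle cultures.

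**Figure D1:**
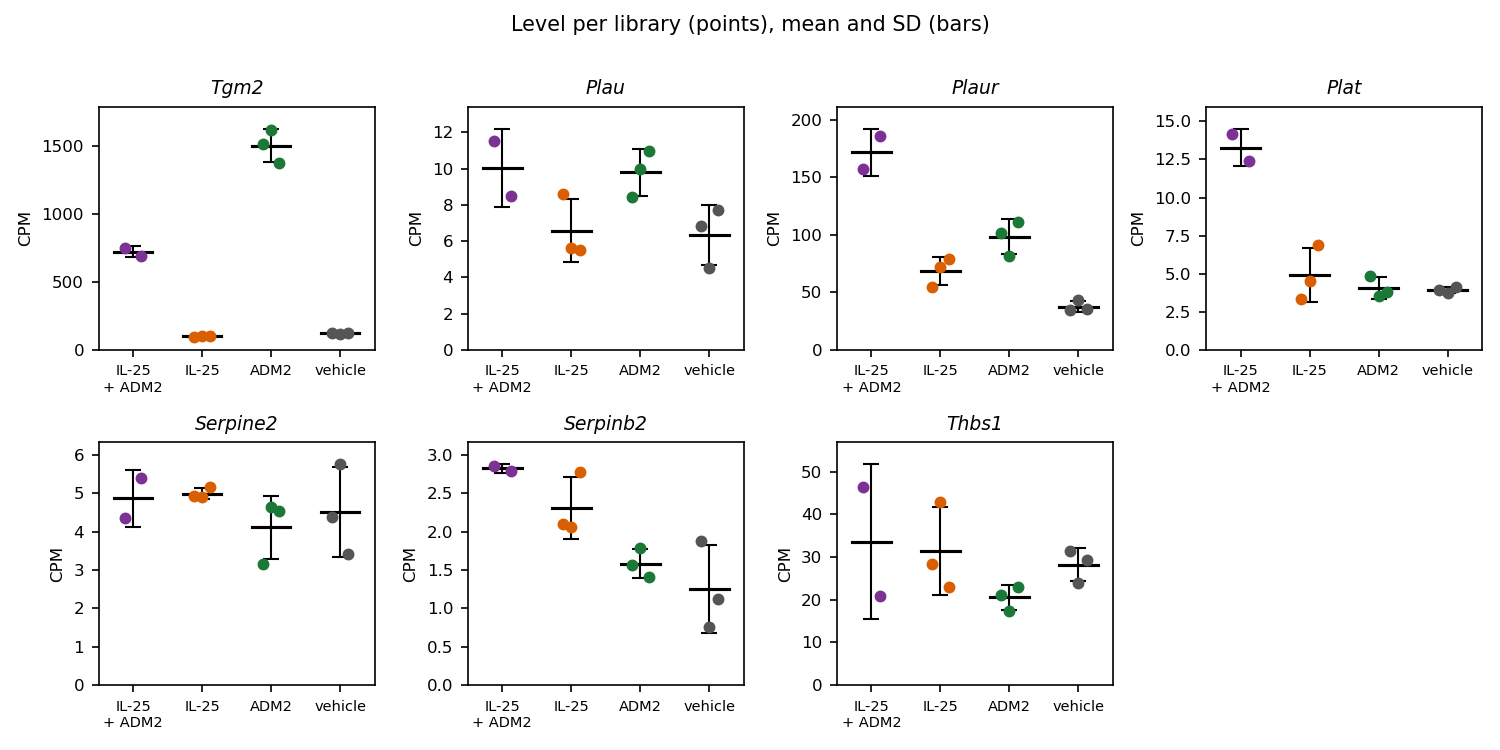
Level of each member in CPM (vertical axis, from 0) in the IL-25 plus ADM2, IL-25, ADM2 and vehicle groups; points are libraries, horizontal bars means and whiskers SD. Tgm2 lies at 1376 to 1621 CPM in ADM2 cultures against 116 to 126 CPM in vehicle cultures, Plaur is highest with both agents, and Plat stands apart only in the 2 IL-25 plus ADM2 libraries.

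A gene is called here when edgeR's quasi-likelihood test gave it a Benjamini-Hochberg adjusted p below 0.05. With ADM2 against vehicle, 2 of the 7 members were called higher (Tgm2 and Plaur) and none lower, where 14.8% of all genes tested were called, 7.39% higher and 7.43% lower. With both agents against IL-25, 3 were called higher (Tgm2, Plaur and Plat) and none lower, where 14.6% of all genes were called, 6.53% higher and 8.1% lower. With IL-25 against vehicle, Plaur was called higher and Tgm2 lower, where 23.3% of all genes were called, 13% higher and 10.4% lower. With both agents against ADM2, Plaur and Plat were called higher and Tgm2 lower, where 10.8% of all genes were called, 6.17% higher and 4.68% lower. The median log2 fold change of the 7 was 0.34 with ADM2 against vehicle and 0.61 with both agents against IL-25, while that of all genes tested was −0.01 in each. Since these contrasts were in view when the members were chosen, nothing is read from these counts, and the 4 comparisons share groups.

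The urokinase receptor gene Plaur (Entrez ID 18793, chromosome 7, 24460937 to 24475970, plus strand) was the member that rose with each agent. The 250 bases before a RefSeq start that lies inside this locus are shown (GRCm38.p6, chr7:24462233-24462482, plus strand). They were picked because they hold 1 match to an AP-1 site, in capitals, the kind of element bound by FOS and JUN proteins. The sequence before the outer end of the locus was not searched.
Plaur: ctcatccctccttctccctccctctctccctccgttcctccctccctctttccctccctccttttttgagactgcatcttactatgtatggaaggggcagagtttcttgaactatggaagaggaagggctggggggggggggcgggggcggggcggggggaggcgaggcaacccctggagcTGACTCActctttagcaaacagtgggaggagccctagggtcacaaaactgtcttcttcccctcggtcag
The AP-1 pattern searched was TGANTCA on both strands, and 6.75% of the 32851 RefSeq windows of this length hold it. No match was found in this window to the cAMP response element TGACGTCA (1.55% of windows), to its half-site TGACG, whose letters open the full element (17.8%), or to the NF-kB pattern of GGG, any 2 bases and TTTCC (1.41%). The match at 69 bases before the start is a description of the sequence.

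Plaur levels were 102, 81.4 and 111 CPM in ADM2 cultures, against 34.4, 43.0 and 35.4 CPM in vehicle cultures. The lowest ADM2 library was above the highest vehicle library, and the fitted difference was 2.61-fold (log2 fold change 1.38 ± 0.15). With IL-25 the levels were 157 and 186 CPM in IL-25 plus ADM2 cultures, against 54.6, 71.8 and 78.6 CPM in IL-25 cultures, 2.51-fold higher (log2 fold change 1.33 ± 0.16). IL-25 alone stood 1.82-fold above vehicle (log2 fold change 0.86 ± 0.15), and IL-25 plus ADM2 1.75-fold above ADM2 (0.81 ± 0.16). The last of these did not pass when IL-25 plus ADM2 replicate 3 was left out (log2 fold change 0.68), a fit in which 1 combined library is left and is assumed to vary like the other groups. The order of the groups was IL-25 plus ADM2, ADM2, IL-25 and vehicle, with no overlap between neighbours.

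Plau, the urokinase gene (Entrez ID 18792, chromosome 14, 20836662 to 20843388, plus strand), passed the test in none of the 4 comparisons. Levels were 8.43, 9.98 and 10.96 CPM in ADM2 cultures, against 6.85, 4.52 and 7.70 CPM in vehicle cultures. These groups did not overlap, yet the difference of 1.54-fold (log2 fold change 0.62 ± 0.25) did not pass the threshold. How often the libraries of all genes separate in this way was not counted, so for every member a lack of overlap is only a description. In the IL-25 background the levels were 11.6 and 8.50 CPM in IL-25 plus ADM2 cultures, against 8.58, 5.61 and 5.53 CPM in IL-25 cultures. Here the groups overlapped, with a log2 fold change of 0.61 ± 0.28 that did not pass either. IL-25 gave log2 fold changes of 0.05 ± 0.26 against vehicle and 0.03 ± 0.28 on top of ADM2. ADM2 and IL-25 plus ADM2 cultures, and IL-25 and vehicle cultures, were neighbours whose libraries overlapped.

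Plat, the tissue plasminogen activator gene (Entrez ID 18791, chromosome 8, 22757722 to 22782848, plus strand), stood apart with both agents. Levels were 14.1 and 12.4 CPM in IL-25 plus ADM2 cultures, against 3.37, 4.50 and 6.86 CPM in IL-25 cultures. Both combined libraries were above all others of the series, 2.70-fold above IL-25 (log2 fold change 1.43 ± 0.30) and 3.27-fold above ADM2 (1.71 ± 0.30). ADM2 cultures had 4.86, 3.52 and 3.80 CPM, against 3.93, 3.70 and 4.12 CPM in vehicle cultures, groups that overlapped (log2 fold change 0.05 ± 0.27). IL-25 versus vehicle gave a log2 fold change of 0.33 ± 0.27, also with overlap. The counts behind Plat were 410 and 361 reads in the combined cultures and 82 to 222 in the others.

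Serpine2, which encodes protease nexin-1, an inhibitor of thrombin and urokinase (Entrez ID 20720, chromosome 1, 79794317 to 79858665, minus strand), did not differ between the groups beyond the spread of its libraries. Levels ran from 3.15 to 5.76 CPM over the 11 libraries, and the groups overlapped in all 4 comparisons. The fitted log2 fold changes lay between −0.14 ± 0.28 for ADM2 against vehicle and 0.25 ± 0.31 for both agents against ADM2, and none passed the test. Its promoter window held no match to any of the 4 patterns.

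Serpinb2, which encodes plasminogen activator inhibitor 2 (Entrez ID 18788, chromosome 1, 107500892 to 107525600, plus strand), was measured from 28 to 90 reads per library. A window before a RefSeq start that lies inside this locus (chr1:107511173-107511422, plus strand) is shown for comparison with that of Plaur, with its single AP-1 match in capitals, at 94 bases before the start.
Serpinb2: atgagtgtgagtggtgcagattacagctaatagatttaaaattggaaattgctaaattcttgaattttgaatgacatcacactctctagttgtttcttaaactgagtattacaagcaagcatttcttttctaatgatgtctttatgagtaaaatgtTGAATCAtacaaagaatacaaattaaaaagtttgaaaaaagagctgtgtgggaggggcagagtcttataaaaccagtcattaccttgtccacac
None of the other 3 patterns was found in it. A second annotated start further on gives a window that holds the same match, at 181 bases before that start.

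Levels of Serpinb2 were 2.09, 2.06 and 2.78 CPM in IL-25 cultures, against 1.88, 0.757 and 1.13 CPM in vehicle cultures. All IL-25 libraries lay above all vehicle libraries, but the log2 fold change of 0.88 ± 0.41 did not pass the threshold. IL-25 plus ADM2 cultures had 2.86 and 2.79 CPM, above the 1.56, 1.79 and 1.40 CPM of ADM2 cultures, with a log2 fold change of 0.83 ± 0.45 that did not pass. ADM2 against vehicle gave 0.34 ± 0.41, with overlapping groups. GENCODE M21 has the neighbour Serpinb10, typed there as a polymorphic pseudogene, overlapping this locus on the same strand, so reads there may be split. The RefSeq table used to match IDs has no other gene over it.

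Thbs1 (Entrez ID 21825, chromosome 2, 118111876 to 118127133, plus strand) passed the test in none of the 4 comparisons. GENCODE M21 has the opposite-strand gene Gm29233 overlapping this locus, and the RefSeq table has no other gene there. ADM2 cultures had 21.1, 17.5 and 23.1 CPM, against 31.4, 23.9 and 29.4 CPM in vehicle cultures. The groups did not overlap, yet the log2 fold change of −0.46 ± 0.26 did not pass the test. IL-25 plus ADM2 cultures had 46.5 CPM in replicate 2 and 20.9 CPM in replicate 3, against 28.3, 42.8 and 23.0 CPM in IL-25 cultures (log2 fold change 0.10 ± 0.29). Against ADM2 alone the combined group had a log2 fold change of 0.71 ± 0.29, which did not pass with all libraries and the filter on low counts. It passed with no filter (0.71). It also passed without IL-25 plus ADM2 replicate 3 (1.18), where the combined group is the 1 library at 46.5 CPM and the spread comes from the other groups. Fibroblast markers summed to 207 CPM in replicate 2 and 165 CPM in replicate 3 of the combined group, and their part in the Thbs1 values was not tested.

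Per kilobase of annotated exon (the union of GENCODE M21 exons), Tgm2 was at 326 ± 26.6 CPM per kb in ADM2 cultures and 26.2 ± 1.14 in vehicle cultures (SD, n = 3 each). Plaur on that scale was at 37.5 ± 5.83 in ADM2 cultures and 14.4 ± 1.79 in vehicle cultures. Plau had 4.14 ± 0.54 and 2.68 ± 0.70 CPM per kb in the same groups, and Thbs1 3.38 ± 0.47 and 4.65 ± 0.64. Plat, Serpine2 and Serpinb2 were below 1 CPM per kb in ADM2 and in vehicle cultures, and Plat reached 2.13 ± 0.19 with both agents (n = 2).

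**Figure D2:**
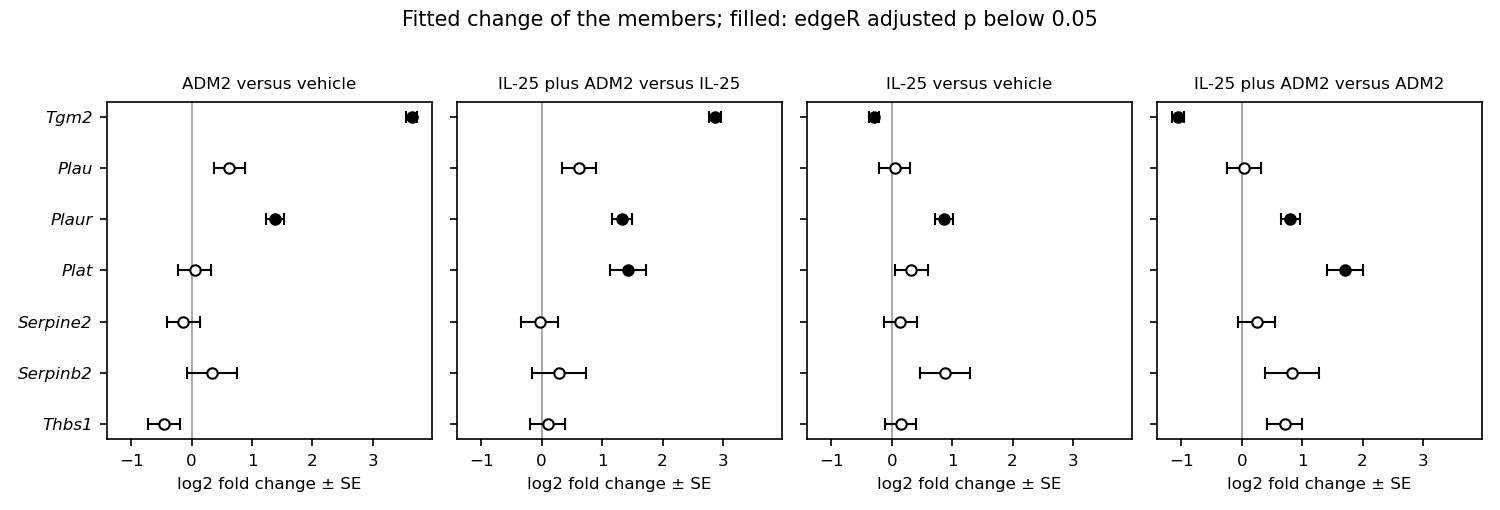
Fitted log2 fold change (horizontal axis) of each member in 4 comparisons, with SE as whiskers; filled points passed the edgeR test at an adjusted p below 0.05. Tgm2 lies to the right with ADM2 (3.64 and 2.87) and to the left with IL-25 (−0.29 and −1.06), while Plaur lies to the right in all 4 comparisons.

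The difference of the ADM2 effect between the IL-25 and the vehicle background was fitted as an interaction. None of the 7 members passed it by edgeR or limma voom, 1 did by DESeq2 (Tgm2) and 2 had an unadjusted p below 0.05 by edgeR (Tgm2 and Plat), where 0.0333% of all genes were called by edgeR, 0.0133% higher and 0.02% lower. For Tgm2 the difference was −0.77 ± 0.13 on the log2 scale, a smaller fitted ADM2 difference in the IL-25 background. For Plat it was 1.38 ± 0.40, a larger fitted difference there. Plaur (−0.06 ± 0.22), Plau (−0.01 ± 0.38) and Serpinb2 (−0.05 ± 0.60) had differences smaller than their SE. So did Serpine2 (0.10 ± 0.42), while that of Thbs1 was 0.56 ± 0.39.

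The rest of the pathway was followed in 6 lists of 99 genes that are not members, of which 75 passed the filter. With ADM2 against vehicle 12 of the 75 rose and 7 fell, together 25.3% beside 14.8% of all genes. With both agents against IL-25 13 rose and 9 fell (29.3%, beside 14.6%), and with IL-25 against vehicle 9 rose and 6 fell (20%, beside 23.3%). With both agents against ADM2 4 rose and 3 fell (9.33%, beside 10.8%). The median log2 fold change of the 75 was 0.17 with ADM2 and 0.16 with ADM2 on top of IL-25. The lists were written with the series' results partly known, so these shares describe them and no test of a list was made. None of the 75 passed the interaction test by edgeR, DESeq2 or limma voom, and 7 had an unadjusted p below 0.05 by edgeR.

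Among plasmin and serpin inhibitors, 2 of 14 tested genes rose and 1 fell with ADM2 (21.4%, beside 14.8% of all genes). With ADM2 on top of IL-25 again 2 rose and 1 fell (21.4%, beside 14.6%). The genes called were Serpinb9, Serpinb6b and Serpina3g in both comparisons. The list holds serpins of other proteases beside plasmin inhibitors, so these counts do not describe plasmin inhibitors. Serpinb9, an inhibitor of granzyme B, averaged 607 ± 60.1 CPM in ADM2 cultures and 141 ± 14.8 CPM in vehicle cultures (log2 fold change 2.11 ± 0.11, edgeR adjusted p = 1.03e-08), and 752 ± 68.3 CPM (n = 2) with both agents, against 254 ± 16.0 CPM with IL-25 (1.57 ± 0.11, adjusted p = 6.67e-07). Serpinb6b rose to 228 ± 17.7 CPM in ADM2 cultures, against 70.2 ± 3.55 CPM in vehicle cultures (edgeR adjusted p = 1.08e-07). Serpina3g fell to 48.0 ± 6.13 CPM in ADM2 cultures, against 114.9 ± 11.1 CPM in vehicle cultures (edgeR adjusted p = 6.15e-06). Serpinb6a, a close relative of Serpinb6b, was at 47.1 ± 2.11 CPM in ADM2 cultures and 38.6 ± 6.63 CPM in vehicle cultures and missed the threshold (edgeR adjusted p = 0.224). Reads may be split between such paralogs. Spint2, an inhibitor of serine proteases, fell to 42.4 ± 6.40 CPM in IL-25 cultures, against 56.7 ± 4.58 CPM in vehicle cultures (edgeR adjusted p = 0.0179, and 0.0780 without IL-25 replicate 2). Plasminogen itself (Plg) was not tested, with no count in 9 of the 11 libraries.

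**Figure D3:**
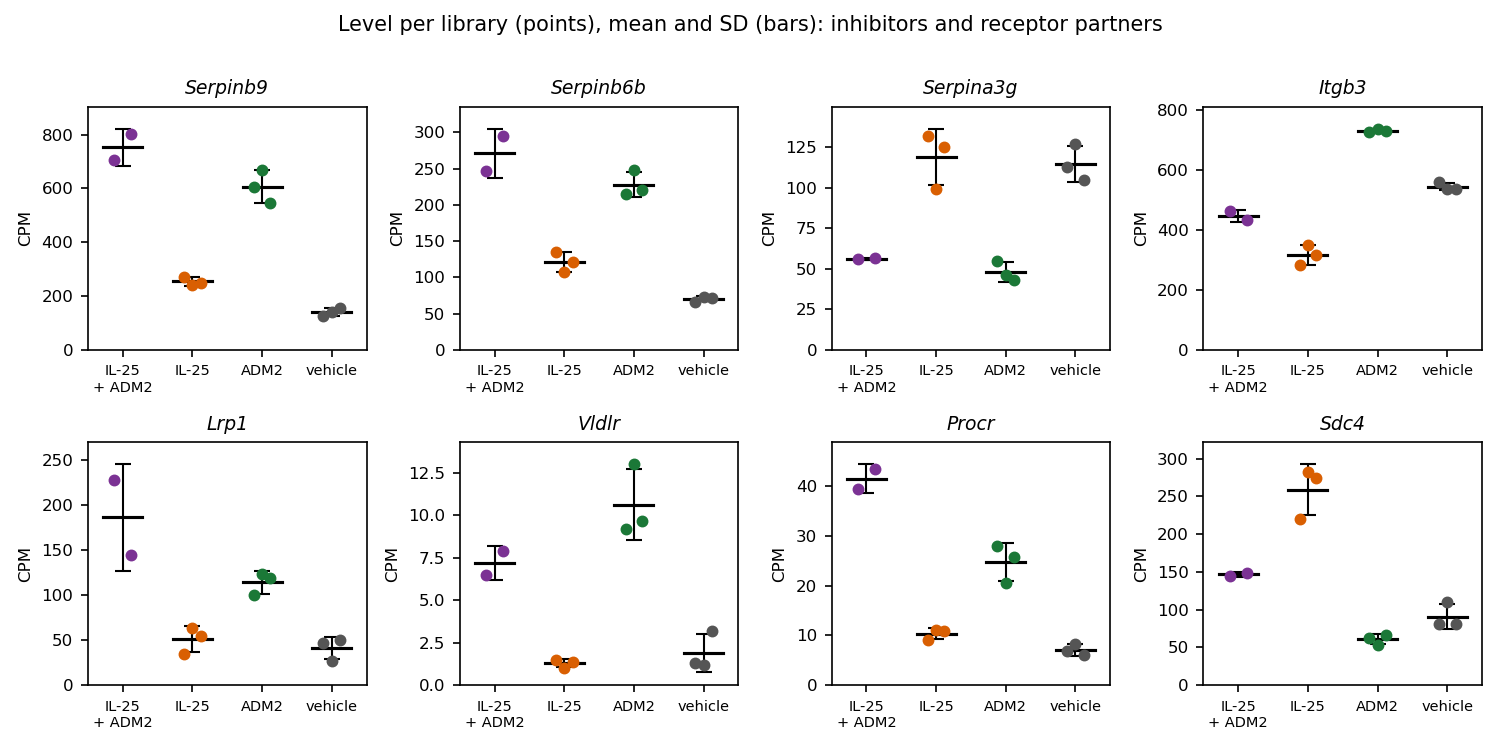
Level in CPM (vertical axis, from 0) of 3 serpin genes and of Itgb3, Lrp1, Vldlr, Procr and Sdc4 in the IL-25 plus ADM2, IL-25, ADM2 and vehicle groups; points are libraries, horizontal bars means and whiskers SD. Serpinb9 averages 607 CPM in ADM2 cultures and 141 CPM in vehicle cultures.

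Among plasminogen and urokinase receptor partners, 4 of 17 tested genes rose and 3 fell with ADM2 (41.2%, beside 14.8% of all genes). With ADM2 on top of IL-25, 5 rose and 6 fell (64.7%, beside 14.6%). Without IL-25 plus ADM2 replicate 2 the second count was 3 higher and 3 lower, again with 1 combined library left. Lrp1, the endocytic receptor that clears complexes of activator and inhibitor, averaged 114 ± 12.7 CPM in ADM2 cultures and 40.9 ± 12.3 CPM in vehicle cultures (log2 fold change 1.48 ± 0.24, edgeR adjusted p = 5.05e-04). Vldlr, a related receptor of such complexes, was at 10.6 ± 2.08 CPM in ADM2 cultures and 1.87 ± 1.11 CPM in vehicle cultures (2.50 ± 0.37, adjusted p = 2.28e-04 by edgeR). The vitronectin receptor subunits Itgav (0.48 ± 0.10) and Itgb3 (0.43 ± 0.09) also rose with ADM2, and Itgb3 fell with IL-25 (−0.78 ± 0.09). Itgb1, the fibronectin receptor subunit, rose with IL-25 (0.61 ± 0.08, edgeR adjusted p = 8.43e-05) and fell with ADM2 on top of it (−0.63 ± 0.10, adjusted p = 3.72e-04). Sdc4, a cell-surface proteoglycan, fell with ADM2 (−0.58 ± 0.13) and rose with IL-25 (1.51 ± 0.14). S100a10 and Anxa2, which form a plasminogen-binding complex, had log2 fold changes of −0.43 ± 0.13 and −0.40 ± 0.13 between ADM2 and vehicle cultures. These lay at the threshold, with edgeR adjusted p of 0.0449 for S100a10 and 0.0571 for Anxa2. The call of S100a10 was lost without vehicle replicate 2, ADM2 replicate 2 or 3, or IL-25 replicate 3, with upper-quartile factors and with the replicate block (adjusted p up to 0.145). Anxa2 was called by DESeq2, by limma voom, with no filter and in 5 fits that each left out 1 library (adjusted p from 0.0168 to 0.0455). Both S100a10 and Anxa2 were called lower with both agents than with IL-25 (edgeR adjusted p = 0.0255 and 0.0126). Anxa2 averaged 139 ± 25.2 CPM (n = 2) with both agents and 213 ± 31.5 CPM with IL-25. The Anxa2 call was lost without IL-25 plus ADM2 replicate 2. That of S100a10 was lost without the same library, without IL-25 replicate 1 and with the replicate block. The plasminogen receptor gene Plgrkt was at 25.6 ± 4.05 CPM in ADM2 cultures and 22.3 ± 0.57 CPM in vehicle cultures (edgeR adjusted p = 0.489). It fell to 15.1 ± 2.72 CPM in IL-25 cultures (edgeR adjusted p = 0.0197 against vehicle, 0.0745 without IL-25 replicate 1). It was called higher with both agents than with IL-25 (edgeR adjusted p = 0.0288), a call lost with the replicate block and without IL-25 replicate 1 or either combined library (adjusted p up to 0.242).

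Of the other transglutaminases and the lysyl oxidases, 8 of 14 genes were tested. With ADM2 1 rose and 1 fell (25%, beside 14.8% of all genes). Tgm1, the keratinocyte transglutaminase, was low, at 5.07 ± 0.63 CPM in ADM2 cultures and 0.77 ± 0.59 CPM in vehicle cultures (log2 fold change 2.73 ± 0.56, edgeR adjusted p = 0.00336). Tgm4, the prostate transglutaminase, was at 5.85 ± 1.51 CPM in ADM2 cultures and 10.02 ± 0.29 CPM in vehicle cultures (−0.78 ± 0.20, edgeR adjusted p = 0.0167), a call lost without ADM2 replicate 1 or 3 (adjusted p up to 0.0691). F13a1, the crosslinking subunit of coagulation factor XIII, did not pass the filter. With IL-25 against vehicle none of the 8 was called by edgeR, DESeq2 or limma voom, and 1 had an unadjusted p below 0.05 by edgeR. Of all genes, 23.3% were called there by edgeR.

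Among thrombospondins and their receptors, 2 of 10 genes rose with ADM2 and none fell (20%, beside 14.8% of all genes). They were Cd36 (1.33 ± 0.27, edgeR adjusted p = 0.00307) and Tgfb1 (0.54 ± 0.09, edgeR adjusted p = 6.88e-04), the cytokine gene whose latent product thrombospondin 1 can activate. Cd47, another thrombospondin receptor gene, lay between 169 and 186 CPM in ADM2 cultures and between 155 and 199 CPM in vehicle cultures (edgeR adjusted p = 0.874). With IL-25 against vehicle Cd47 rose (log2 fold change 0.50 ± 0.11, edgeR adjusted p = 0.00341).

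Among coagulation genes and thrombin receptors, 3 of 10 tested rose with ADM2 (Procr, Thbd and F2r) and none fell (30%, beside 14.8% of all genes). Without vehicle replicate 1, vehicle replicate 3 or ADM2 replicate 3 the count was 1. Procr, the endothelial protein C receptor gene, averaged 24.8 ± 3.82 CPM in ADM2 cultures and 7.05 ± 1.20 CPM in vehicle cultures (log2 fold change 1.81 ± 0.17, edgeR adjusted p = 2.77e-06), and 41.5 ± 2.90 CPM (n = 2) with both agents, against 10.3 ± 1.18 CPM with IL-25 (2.00 ± 0.18, adjusted p = 3.73e-06). Of the 7 endothelial markers, Cldn5 was called higher with ADM2 (2.83 ± 0.47) and Pecam1 lower (−0.36 ± 0.10), and the other 5 were not called; the part of endothelial cells in the Procr values was not tested. Thbd, the thrombomodulin gene, was at 9.34 ± 1.39 CPM in ADM2 cultures and 5.26 ± 0.58 CPM in vehicle cultures (edgeR adjusted p = 0.0146), a call lost without vehicle replicate 1 or 3 or ADM2 replicate 1 or 3 (adjusted p up to 0.0801). F2r had a log2 fold change of 0.46 ± 0.13 with ADM2 (edgeR adjusted p = 0.0283), lost with the replicate block and without any 1 vehicle library or ADM2 replicate 2 or 3 (adjusted p up to 0.138). F2rl2, a thrombin receptor family gene, fell to 3.26 ± 0.20 CPM in IL-25 cultures, against 8.96 ± 1.29 CPM in vehicle cultures (edgeR adjusted p = 4.37e-04). The thrombin receptor gene F2r fell to 44.9 ± 7.87 CPM in IL-25 cultures, against 82.2 ± 6.46 CPM in vehicle cultures (edgeR adjusted p = 2.23e-04), and was 1.89-fold higher with IL-25 plus ADM2 than with IL-25 (edgeR adjusted p = 5.43e-04). F3, the tissue factor gene, was at 3.99 ± 0.55 CPM in ADM2 cultures and 2.20 ± 0.98 CPM in vehicle cultures and missed the threshold (edgeR adjusted p = 0.334).

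Among matrix metalloproteinases and their inhibitors, 2 of 16 tested genes fell with ADM2 and none rose (12.5%, beside 14.8% of all genes). With IL-25 against vehicle 3 rose and 1 fell (25%, beside 23.3%). Both shares were near those of all genes. Mmp10 (stromelysin 2) averaged 35.2 ± 5.50 CPM in IL-25 cultures and 6.90 ± 1.96 CPM in vehicle cultures (log2 fold change 2.35 ± 0.21, edgeR adjusted p = 2.29e-06). It was lower with ADM2 in both backgrounds, at 3.25 ± 0.52 CPM in ADM2 cultures (−1.09 ± 0.22 against vehicle, edgeR adjusted p = 0.00273) and 12.1 ± 0.30 CPM (n = 2) in IL-25 plus ADM2 cultures (−1.54 ± 0.24 against IL-25, edgeR adjusted p = 4.73e-04). Adam8, a cell-surface metalloproteinase, moved in the same directions with each single agent (−0.56 ± 0.11 with ADM2 and 0.66 ± 0.11 with IL-25). Mmp13 (collagenase 3) rose with IL-25 (2.08 ± 0.37, edgeR adjusted p = 7.89e-04). Mmp25, a membrane-anchored metalloproteinase, was the gene that fell with IL-25 (−0.66 ± 0.18, edgeR adjusted p = 0.0139), a call lost without IL-25 replicate 1 or 3 (adjusted p up to 0.0597). Timp1, an inhibitor of these proteases, was below 1 CPM on average in every group.

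**Figure D4:**
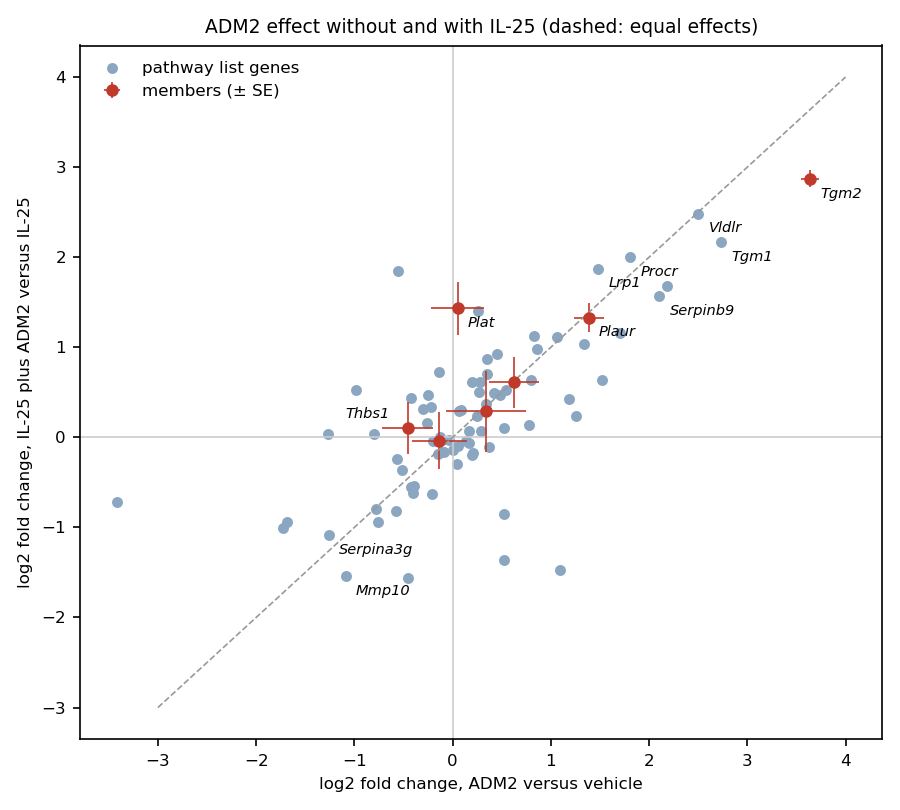
Log2 fold change of ADM2 versus vehicle (horizontal axis) against that of IL-25 plus ADM2 versus IL-25 (vertical axis) for the 7 members (red, with SE) and the 75 tested pathway genes (blue); the dashed line marks equal effects. Tgm2 lies below the line at 3.64 and 2.87 and Plat near 0 on the horizontal axis and at 1.43 on the vertical.

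The genes whose profile over the 11 libraries was most like that of each member were listed among 9458 others whose mean reached 2 log2 CPM (9459 for Serpinb2, which is itself below that mean). This is a description over libraries that share 4 groups, so the correlations mostly follow group means. For Tgm2 the closest were Csf2rb2 (Pearson r = 0.995), Pdcd1 (0.991), Parp8 (0.990), Gcnt2 (0.989) and P2ry10 (0.987), which were 12.3-, 3.24-, 2.02-, 3.28- and 3.09-fold higher in ADM2 than in vehicle cultures. Csf2rb2, a cytokine receptor gene, can share reads with its near-identical neighbour Csf2rb. For Plaur they were Jund (0.990), Slc15a3 (0.987) and Maff (0.979), and for Plau Antxr1 (0.917), Plpp5 (0.906) and Lgr4 (0.904). Those of Plat were Rnf19b (0.903), Cish (0.892) and Nek8 (0.889), and those of Serpinb2 were Fosl1 (0.907), Sh2d2a (0.906) and Foxp3 (0.904). Serpine2 had Bmp7 (0.922), Nelfe (0.883) and Trdmt1 (0.8000), and Thbs1 had Bcorl1 (0.857), Wdr89 (0.843) and Fbn1 (0.832).

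Macrophages, fibroblasts and endothelial cells are known to express several of these genes, so markers of those cells were summed. The 12 macrophage and monocyte markers summed to 23.6 to 24.4 CPM in ADM2 cultures and 10.8 to 13.8 CPM in vehicle cultures, and to 25.4 to 26.4 CPM with both agents, against 12.9 to 20.2 CPM with IL-25. Of the 12, only Cd14 was called with ADM2 (log2 fold change 1.65 ± 0.31, edgeR adjusted p = 0.00159), none was at 0 in all libraries, and 4 averaged above 1 CPM in ADM2 cultures, against 3 in vehicle cultures. The 8 fibroblast markers summed to 112 to 185 CPM in ADM2 cultures and 139 to 160 CPM in vehicle cultures, ranges that overlap. They summed to 165 to 207 CPM with both agents, against 121 to 182 CPM with IL-25, again with overlap. Among the 7 endothelial markers Pecam1 carried most of the sum, at 89.5 to 93.4 CPM in ADM2 cultures and 116 to 121 CPM in vehicle cultures, and at 261 to 347 CPM in IL-25 cultures. The other 6 summed to 28.2 to 30.3 CPM in ADM2 cultures and 18.5 to 21.8 CPM in vehicle cultures, and to 13.2 to 25.2 CPM in IL-25 cultures. With both agents the same 6 summed to 24.5 to 35.4 CPM, a range that overlaps that of IL-25 cultures. Among the 8 epithelial markers Epcam was at 79.0 to 82.1 CPM in ADM2 cultures and 154 to 185 CPM in vehicle cultures. The other 7 epithelial markers summed to 2.52 to 9.86 CPM in ADM2 cultures and 3.52 to 6.57 CPM in vehicle cultures, ranges that overlap. They summed to 4.68 to 33.2 CPM with both agents, against 3.43 to 22.2 CPM with IL-25, also with overlap. Of the 8 mast cell markers, 5 were at 0 in all libraries, among them Mcpt4, Cma1 and Ms4a2. The part of such cells in the values of the members was not tested.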

How the data were processed

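RNA-seq of 11 ILC2 cultures was deposited as 1 table of raw read counts per gene, keyed by Entrez Gene ID; the deposited counts are whole numbers. The submitters' processing notes name featureCounts, limma and the build mm10; the aligner, annotation release and strand setting were not given in the sources used here. Groups and replicate numbers came from the sample titles. The count table used here has no column for replicate 1 of IL-25 plus ADM2, so that library is not analysed here. IDs were matched to symbols and coordinates with a RefSeq table of GRCm38.p6 (25275 matched, 1904 not, 1.16% to 2.68% of counts). No pair of libraries of a group looked like 1 library deposited again (chi-square per degree of freedom 15.8 to 53.9).

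The quasi-likelihood F test of edgeR 4.0.16 (R 4.3.3) was run on the counts of 15028 genes kept by filterByExpr at a minimum count of 10, after TMM scaling, with 1 mean per group over all 11 libraries. P-values were adjusted over all genes by Benjamini-Hochberg and called below 0.05; the code was tested on simulated data. The SE of a log2 fold change is its size over the square root of its F value. CPM used library sizes times TMM factors. Alternatives were DESeq2 1.42.0, limma 3.58.1 voom, other scaling and filters, a replicate block and leaving out each library. Promoters are RefSeq windows, cut to 250 bases before the start, found for 3 of 7 members. Exon lengths and overlapping genes came from GENCODE M21 (GRCm38).

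The members and lists were chosen with earlier results of these data known. Named genes were all members, at most 4 called genes per list and comparison with the smallest p, and 11 genes named whatever their result (Tgm1, F13a1, Serpinb6a, Serpinb9, Plg, Plgrkt, Anxa2, S100a10, Cd47, F3 and Timp1). Rprd1b and the markers Cldn5, Pecam1, Epcam and Cd14 are outside this rule and were named after their values were seen. P-values set a group difference against the spread between these cultures, which may be technical. One further pathway gene is not reported here.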

Additional observations from a re-analysis of the deposited data

How the results depend on the processing

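Of 630 refitted member values 623 kept their direction and side of the threshold, 2 lost and 5 gained a call, and none changed direction in a call. The 2 lost calls were Tgm2 with IL-25 and Plaur with IL-25 plus ADM2 versus ADM2, both after leaving out 1 library. Of the 5 gained, 2 were Thbs1 in the last comparison (adjusted p = 0.0270 with no filter and 0.0168 without IL-25 plus ADM2 replicate 3) and 3 were the interaction of Tgm2 (3.61e-05 with DESeq2, 0.0141 with no filter and 0.0474 without IL-25 replicate 1). Of 2605 values of pathway genes, 2512 kept both, 59 lost and 34 gained a call.

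Leaving out each library in turn gave 1263 to 2261 genes called for IL-25 plus ADM2 against IL-25 (2198 with all; lowest without IL-25 plus ADM2 replicate 3) and 739 to 1926 against ADM2 (1630 with all; lowest without the same library). It gave 14 to 23 pathway genes in the first (22 with all; lowest without IL-25 plus ADM2 replicate 2) and 1 to 2 members with IL-25 against vehicle. For both agents against ADM2, 12 pathway genes were called with no filter and 11 by DESeq2, against 7 by edgeR with the filter. The interaction gave 5 genes, and 47 by DESeq2, 47 with no filter, 3 at a minimum count of 30, 1 by limma voom, 2 with the replicate block, and 0 to 6 leaving out 1 library; the cause was not tested. Members called there were 0, and 1 by DESeq2, 1 with no filter, and 0 to 1 leaving out 1 library.

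Upper-quartile factors changed the share of higher calls to 44.6% for IL-25 against vehicle (55.6% with TMM), to 57.4% for both agents against IL-25 (44.6%), and to 60% of 5 genes for the interaction (40%; 50% of 4 with RLE factors). Same-numbered libraries showed no shared deviation (r −0.07 to 0.07 over 15 pairs). These deviations were taken from means of 2 or 3 libraries, so whether same-numbered cultures shared a source cannot be told from them. The replicate block called 1853 genes for ADM2 against vehicle (2227 without it) and changed no call of a member. Serpinb2 rests on 28 to 90 reads per library, the fewest of the members. Fits without 1 combined library leave 1 in that group, whose spread is then taken from the other groups.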
